A study of Homo sapiens with 3 samples.

Results

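The genes described here are the human zinc finger genes named ZBTB, ZSCAN or ZKSCAN followed by a number. They were chosen by symbol alone, as every gene in the authors' region annotation that matched such a name, which gave 62 of 21948 annotated genes. They comprise 39 ZBTB genes, called the BTB family here, and 23 genes with a SCAN domain, of which 16 are ZSCAN and 7 are ZKSCAN genes. The study mapped variants of histone H3 with ChIP-seq, the sequencing of DNA pulled down with an antibody. The cells were MDA-MB-231 LM2, a subline of a triple-negative breast cancer line selected for metastasis to the lung. Its 3 samples were 1 ChIP of H3.1/H3.2, 1 ChIP of H3.3, and 1 input DNA that was not analysed here. Both ChIP column headers include the word shGFP, the usual name of a control hairpin. The sample labels do not mention it, and it is not settled here if the cells carried one.

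Proteins of the BTB family join zinc fingers that bind DNA to a BTB domain, which pairs the protein with itself or a relative and recruits corepressors or the cullin 3 ubiquitin ligase. Several of them fix the fate of blood and immune cells, and others read methylated DNA or bind telomeres. SCAN proteins join zinc fingers to a leucine-rich domain that also pairs proteins, and the ZKSCAN members mostly carry a KRAB repressor domain as well, the domain typical of the large ZNF family. Of the histones measured, H3.1/H3.2 enter chromatin mainly while DNA replicates, and H3.3 can enter at any stage of the cell cycle, mostly at active and regulatory sites.

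Each value rests on 1 library per antibody, so there was no replicate check and no p-value, and the intervals of folds cover counting error only. Heights are mean pileup heights over a region, and a fold is the H3.3 height over the H3.1/H3.2 height. No source used here gives the scaling between the libraries, and the side of 1 on which a fold falls holds relative to it. Over all 67965 regions the libraries held an estimated 5898442 (H3.1/H3.2) and 7333065 (H3.3) tags, with medians of 45 and 56 per region. A promoter region is the region nearest a gene's start within 7500 bases upstream to 2500 bases downstream of it, and gene body regions are the regions inside the gene outside that window. Of the 62 members 44 had a promoter region, 43 had a body region, 27 had both, and ZBTB8A and ZSCAN4, a telomere regulator of mouse embryonic stem cells, had neither.

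Promoter sequences are shown for members with low and high promoter folds in each family, since the same bases lie in or beside the measured regions. They are the 300 bases from 250 before to 50 after the start in RefSeq's GRCh38.p14 table. Of the 44 members with a promoter region, 18 had such a window that overlapped the region and whose start lay within 100 bases of the start used by the authors. The lowest and highest pair of each family among these 18 are printed. Capitals mark matches on either strand to GGGCGG (a GC box), CCAAT, TCCTGCNA (a Kaiso site) or a palindromic motif also reported for the BTB protein Kaiso. No marked matches overlap one another in these windows. The BTB promoters with the lowest folds among the 18 were ZBTB48 (chr1:6579744-6580043, plus strand) and ZBTB49 (chr4:4290001-4290300, plus strand).
ZBTB48: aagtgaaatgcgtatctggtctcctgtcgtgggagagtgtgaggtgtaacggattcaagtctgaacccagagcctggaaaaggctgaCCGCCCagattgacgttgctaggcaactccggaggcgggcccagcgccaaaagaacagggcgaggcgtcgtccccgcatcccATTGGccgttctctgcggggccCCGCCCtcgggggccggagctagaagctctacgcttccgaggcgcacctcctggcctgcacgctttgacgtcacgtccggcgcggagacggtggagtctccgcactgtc
ZBTB49: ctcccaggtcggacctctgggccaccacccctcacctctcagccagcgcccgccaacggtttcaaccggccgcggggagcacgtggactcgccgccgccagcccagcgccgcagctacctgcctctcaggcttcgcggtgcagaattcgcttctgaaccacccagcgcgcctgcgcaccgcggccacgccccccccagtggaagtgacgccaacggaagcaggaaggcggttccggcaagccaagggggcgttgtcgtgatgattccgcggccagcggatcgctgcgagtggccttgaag

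The BTB promoters with the highest folds among the 18 were ZBTB14 (chr18:5297004-5297303, minus strand) and ZBTB11 (chr3:101677083-101677382, minus strand).
ZBTB14: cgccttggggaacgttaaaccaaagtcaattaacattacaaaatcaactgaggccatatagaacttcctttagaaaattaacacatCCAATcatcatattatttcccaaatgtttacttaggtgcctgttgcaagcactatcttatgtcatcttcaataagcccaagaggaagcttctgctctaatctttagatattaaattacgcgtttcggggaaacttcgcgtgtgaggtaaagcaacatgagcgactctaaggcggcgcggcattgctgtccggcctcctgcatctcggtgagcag
ZBTB11: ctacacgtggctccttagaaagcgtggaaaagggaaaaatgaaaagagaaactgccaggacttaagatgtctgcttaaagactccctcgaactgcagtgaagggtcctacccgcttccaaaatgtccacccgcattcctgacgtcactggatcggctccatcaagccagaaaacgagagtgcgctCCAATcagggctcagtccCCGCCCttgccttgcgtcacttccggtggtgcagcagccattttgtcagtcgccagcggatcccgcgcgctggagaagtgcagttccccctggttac

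On the SCAN side the lowest folds among the 18 were at ZSCAN22 (chr19:58326744-58327043, plus strand) and ZSCAN21 (chr7:100049524-100049823, plus strand). The highest among the 18 were at ZSCAN12 (chr6:28399698-28399997, minus strand) and ZSCAN32 (chr16:3400955-3401254, minus strand).
ZSCAN22: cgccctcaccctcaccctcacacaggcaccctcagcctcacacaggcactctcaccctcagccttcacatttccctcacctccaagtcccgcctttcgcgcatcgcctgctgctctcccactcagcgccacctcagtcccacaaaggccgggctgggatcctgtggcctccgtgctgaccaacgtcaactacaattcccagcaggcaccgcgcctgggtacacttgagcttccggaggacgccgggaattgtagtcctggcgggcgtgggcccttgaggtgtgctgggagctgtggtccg
ZSCAN21: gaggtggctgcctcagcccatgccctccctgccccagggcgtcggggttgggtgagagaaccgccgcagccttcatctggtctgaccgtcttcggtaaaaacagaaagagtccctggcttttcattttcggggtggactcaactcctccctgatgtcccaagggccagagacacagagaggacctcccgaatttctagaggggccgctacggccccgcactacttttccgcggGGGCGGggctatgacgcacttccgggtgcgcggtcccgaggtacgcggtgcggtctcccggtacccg
ZSCAN12: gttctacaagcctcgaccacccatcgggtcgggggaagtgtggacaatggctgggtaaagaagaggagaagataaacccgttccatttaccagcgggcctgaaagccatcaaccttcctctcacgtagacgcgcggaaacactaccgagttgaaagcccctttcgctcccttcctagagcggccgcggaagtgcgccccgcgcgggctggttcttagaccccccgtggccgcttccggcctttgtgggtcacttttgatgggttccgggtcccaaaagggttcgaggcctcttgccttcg
ZSCAN32: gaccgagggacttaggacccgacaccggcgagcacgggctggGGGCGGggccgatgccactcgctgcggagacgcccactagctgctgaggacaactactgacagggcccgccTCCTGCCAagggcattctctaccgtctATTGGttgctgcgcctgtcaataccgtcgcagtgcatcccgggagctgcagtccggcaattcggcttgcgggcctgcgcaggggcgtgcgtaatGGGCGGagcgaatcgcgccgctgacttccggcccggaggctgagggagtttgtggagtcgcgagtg

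Motif matches were found among both the low and the high promoters. The GC box was present in ZBTB48 and ZSCAN32, with 2 matches each, and in ZBTB11 and ZSCAN21, with 1 each. A CCAAT match was found once in each of ZBTB48, ZBTB14, ZBTB11 and ZSCAN32, and TCCTGCNA once, in ZSCAN32. ZBTB14 had the lowest GC content of the 8 windows, at 43.0% with 13 CpG dinucleotides, and ZBTB49 the highest, at 69.7% with 33. Over all RefSeq windows of the members, GGGCGG occurred in 59.7% of 67 BTB windows and 54.8% of 31 SCAN windows, against 45.0% of all 35116 windows. The palindromic Kaiso motif, 10 bases long, occurred in 0 BTB and 0 SCAN windows, and in 0.424% of all windows.

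Most promoters of the BTB family carried more H3.3 than H3.1/H3.2, as promoters in general did. The 2-fold mark toward H3.3 was reached at 16 of 31 BTB promoters (51.6%), where 50.5% of all 17529 genes with a promoter region reached it. At 1 of 31, ZBTB24, H3.1/H3.2 was the higher by 2-fold or more, where the share over all genes was 6.25%. At 23 BTB promoters the whole counting interval was above 1 and at 4 below 1, where the shares over all genes were 67.5% and 15.2%. The median log2 ratio of the family, taken with a pseudocount of 1, was 0.98 (95% interval over genes 0.47 to 1.21), and that of all genes was 0.89.

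**Figure D1:**
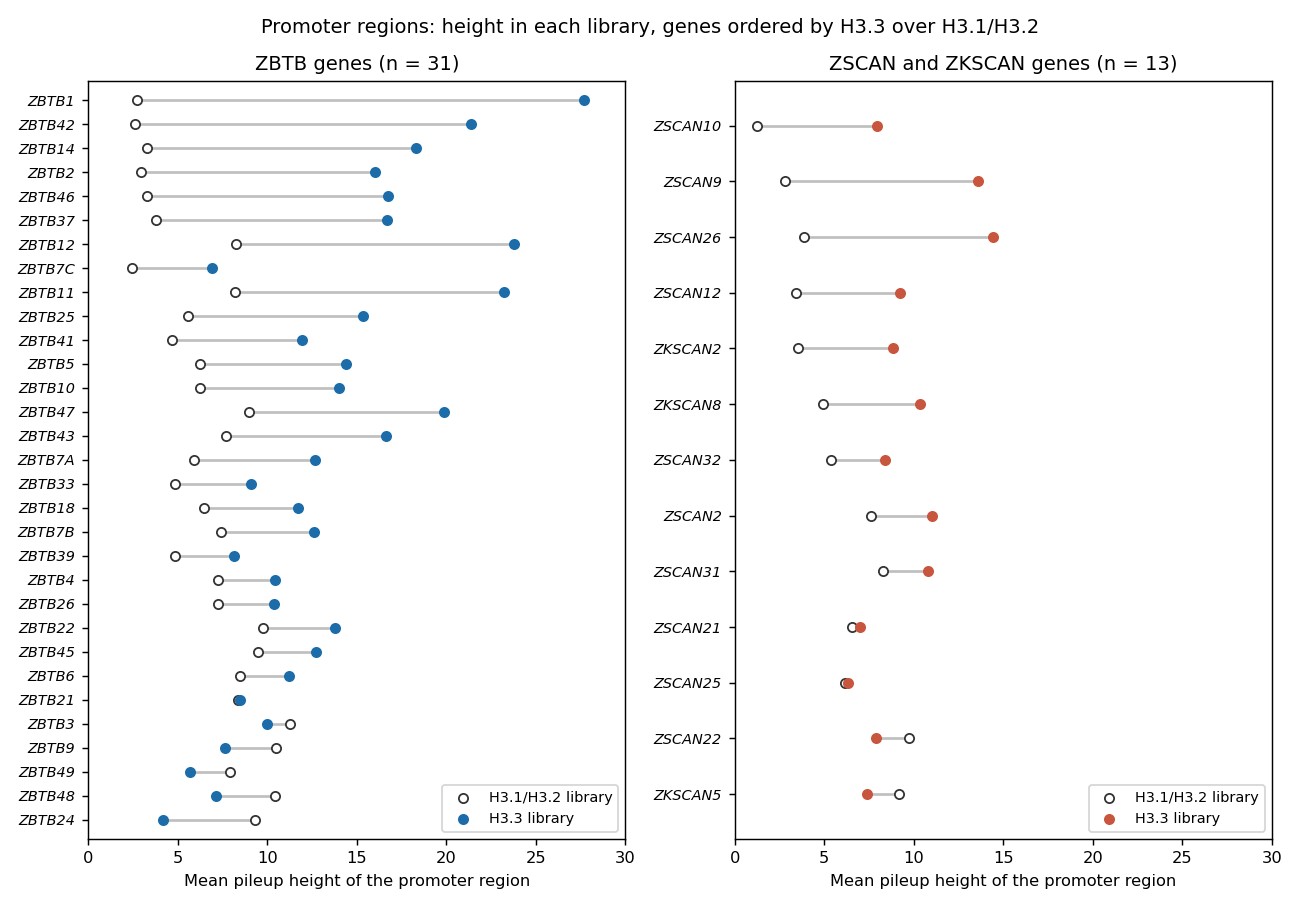
Mean pileup height of the promoter region in the H3.1/H3.2 library (open circles) and the H3.3 library (filled circles), 1 row per gene, with ZBTB genes on the left, ZSCAN and ZKSCAN genes on the right, and genes ordered by fold from low (bottom) to high (top). H3.3 is the higher in 26 of 31 ZBTB rows and 11 of 13 SCAN rows, and the widest gap is at ZBTB1, with heights of 2.71 and 27.7.

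The 2 highest folds of all members belonged to BTB genes on chromosome 14. At ZBTB1, a transcription factor of lymphoid development, the region at 64504000 to 64504999 had an H3.1/H3.2 height of 2.71 and an H3.3 height of 27.7, a fold of 10.2 (5.66 to 20.4). It lay 49.5 bases inside the gene, and the H3.1/H3.2 height rested on only 12 tags. The other 5 regions in the ZBTB1 window had folds from 1.46 to 2.74. ZBTB25 starts close by in the opposite direction, and its own nearest region, one of those 5, had heights of 5.60 and 15.4 (2.74-fold, 1.62 to 4.84). At ZBTB42, a regulator known from skeletal muscle, heights were 2.60 and 21.4 over 4399 bases (8.22-fold, 6.15 to 11.2). That region lay 197.5 bases from the start and was also assigned to AKT1.

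Within the BTB family the next folds were near 5. At ZBTB14, a repressor that binds GC-rich DNA, and whose promoter is printed above, heights were 3.28 and 18.3 (5.59-fold, 2.65 to 12.6, from 9 and 49 tags). ZBTB2 had heights of 2.96 and 16.0 (5.42-fold, 2.69 to 10.96), in a region 1501.5 bases inside the start. In ZBTB46, a marker of classical dendritic cells, they were 3.32 and 16.8 (5.05-fold, 3.67 to 7.20). These 3 regions had a call in H3.3 alone, and each had an H3.1/H3.2 height below the median of 5.68 over the promoters of all genes. ZBTB37 had heights of 3.77 and 16.7 (4.43-fold, 3.69 to 5.37), but its region of 8399 bases was assigned to 14 genes, among them the snoRNA host gene GAS5. ZBTB12 had a high level of both, at 8.25 and 23.8 (2.88-fold, 2.22 to 3.75), in a region also assigned to EHMT2 and C2. In ZBTB7C, a relative of ZBTB7A, both were low, at 2.43 and 6.92 (2.84-fold, 1.48 to 5.84).

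At the other end, 5 BTB promoters had more H3.1/H3.2 than H3.3. ZBTB24, which is mutated in a syndrome of immunodeficiency and unstable centromeres, had an H3.1/H3.2 height of 9.32 and an H3.3 height of 4.19 (0.449-fold, 0.248 to 0.795). Its region, 238.5 bases from the start, had a call in the H3.1/H3.2 library alone. At ZBTB48, which binds telomere repeats and trims telomeres, the heights were 10.5 and 7.16 (0.684-fold, 0.535 to 0.873). ZBTB49 had 7.92 and 5.70 (0.720-fold, 0.555 to 0.927), and the other 3 regions in its window also lay below 1, down to 0.436-fold. ZBTB9 had 10.5 and 7.64 (0.729-fold, 0.569 to 0.933) and was the other BTB promoter called in H3.1/H3.2 alone, where 11.1% of all genes had such a promoter. At these 4 genes the counting interval lay below 1. ZBTB3, at 11.3 and 10.0 (0.886-fold, 0.710 to 1.11), could not be told from balance at this depth. The same held for ZBTB21, at 8.35 and 8.49 (1.02-fold, 0.647 to 1.55). ZBTB6 (1.32-fold, 1.01 to 1.74) and ZBTB45 (1.34-fold, 1.18 to 1.51) stood just above 1.

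Both readers of methylated CpG sites that had a promoter region had an interval above 1, where 67.5% of all genes did. Kaiso, encoded by ZBTB33, had promoter heights of 4.88 and 9.09 (1.86-fold, 1.25 to 2.84) in a region called in H3.3 alone. ZBTB4 had 7.27 and 10.5 (1.44-fold, 1.21 to 1.71) in a region called in both libraries, which was also assigned to the RNA polymerase II gene POLR2A. ZBTB38 had no promoter region. Of the telomere-binding members, ZBTB10 (6.24 and 14, 2.24-fold, 1.35 to 3.94) lay on the opposite side of 1 from ZBTB48.

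ZBTB7A, a repressor of fetal globin genes, had heights of 5.92 and 12.7 (2.14-fold, 0.979 to 4.75) in a region of only 399 bases, whose interval included 1. The 6 regions in its window all had more H3.3, from 1.87-fold to 6.08-fold. At ZBTB7B, which directs CD4 T cell fate, heights were 7.43 and 12.6 (1.70-fold, 1.45 to 1.98). Of the 10 genes listed as blood and immune regulators, ZBTB17, ZBTB20 and ZBTB32 had no promoter region and ZBTB16 was not analysed here. Of the 6 with a promoter region, H3.3 was the higher in 5 (ZBTB1, ZBTB7A, ZBTB7B, ZBTB25 and ZBTB46) and H3.1/H3.2 in ZBTB24, where H3.3 was the higher in 77.5% of all promoters.

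The SCAN family also had more H3.3 at most of its promoters. Of 13 SCAN promoters 6 reached 2-fold toward H3.3 (46.2%) and 0 reached it toward H3.1/H3.2, where the shares over all genes were 50.5% and 6.25%. The counting interval was above 1 in 9 (69.2%) and below 1 in 0, where those shares were 67.5% and 15.2%. The median log2 ratio was 0.57 (0.03 to 1.65), and its interval included 0 when the libraries were scaled to equal tags (0.29, -0.23 to 1.36) and when all regions of a promoter window were averaged (0.34, -0.61 to 1.31). It was 0.42 below that of the BTB family, and the interval of that difference, BTB minus SCAN, ran from -0.79 to 0.995 and included 0. The median H3.3 height was 8.84 at SCAN promoters, 12.7 at BTB promoters and 10.2 over all genes. Those of H3.1/H3.2 were 5.36, 7.23 and 5.68.

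A CpG island lay in 30 of 31 BTB promoter regions (96.8%, 83.3 to 99.9) and in 8 of 13 SCAN regions (61.5%, 31.6 to 86.1), where 73.5% of all genes had one. These intervals overlap, and the difference between the families was not tested. The 5 SCAN promoters without an island were ZSCAN9, ZSCAN10, ZSCAN21, ZSCAN26 and ZSCAN31. Their median log2 ratio was 1.65, with too few genes for an interval, and that of the 8 with an island was 0.52 (-0.28 to 1.22). Over all genes the medians were 0.98 without and 0.86 with an island. ZSCAN9, ZSCAN26 and ZSCAN31 lie on chromosome 6, and the difference was not tested.

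The highest SCAN fold was at ZSCAN10, a factor of pluripotent cells, with heights of 1.27 and 7.94 (6.24-fold, 3.11 to 14.6, from 9 and 57 tags). Its region lay 1518.5 bases from the start. Next came members of the cluster on the short arm of chromosome 6. ZSCAN9 had 2.83 and 13.6 (4.80-fold, 2.82 to 8.35), and ZSCAN26 had 3.89 and 14.4 (3.70-fold, 2.24 to 6.26). ZSCAN12 had 3.40 and 9.24 (2.72-fold, 1.38 to 5.85) and ZKSCAN8 4.95 and 10.3 (2.09-fold, 1.52 to 2.94). ZSCAN31 had 8.30 and 10.8 (1.30-fold, 1.06 to 1.60). All 5 ZSCAN and ZKSCAN promoters on chromosome 6 were thus called in H3.3 alone with an interval above 1. Over all genes 57.6% of promoters were called in H3.3 alone and 67.5% had an interval above 1. PGBD1, a SCAN gene under another name on chromosome 6, had the opposite lean. It was at 0.352-fold (0.268 to 0.465), called in H3.1/H3.2 alone, in a region 862.5 bases from its start.

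The other 8 SCAN promoters, ZSCAN10 among them, ran from 0.806-fold to 6.24-fold, with a median log2 ratio of 0.28 (-0.28 to 1.98) that included the 1.22 of the 5 on chromosome 6 in its interval. ZKSCAN2 on chromosome 16 had 3.53 and 8.84 (2.50-fold, 1.33 to 4.67), ZSCAN32 5.36 and 8.41 (1.57-fold, 1.06 to 2.37), and ZSCAN2 7.63 and 11.0 (1.44-fold, 1.13 to 1.84). The region of ZSCAN32 is shared with ZNF174, another SCAN gene. On chromosome 7, ZSCAN21, a regulator of the alpha-synuclein gene, had 6.56 and 6.98 (1.06-fold, 0.700 to 1.62). ZSCAN25 had 6.19 and 6.35 (1.03-fold, 0.740 to 1.42) and ZKSCAN5 9.17 and 7.39 (0.806-fold, 0.643 to 1.01). ZSCAN22 on chromosome 19 had 9.75 and 7.86 (0.806-fold, 0.604 to 1.07). At the 3 genes of chromosome 7 and at ZSCAN22 the interval included 1, and all 4 regions were called in both libraries.

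The SCAN family differed from other genes in gene bodies and not detectably at promoters, where its median minus that of the genes outside both families was -0.33 (-0.86 to 0.76). Of its 53 body regions 41 were called in H3.1/H3.2 alone (77.4%, 63.8 to 87.7), where 50.6% of all 44823 body regions were. H3.1/H3.2 was the higher by 2-fold or more in 30 of them (56.6%, 42.3 to 70.2), where the share over all body regions was 29.6%. These intervals treat the regions as independent, though many come from the same gene. The opposite 2-fold mark was reached in 4 (7.55%), where the share over all was 24.5%. The counting interval lay below 1 in 37 SCAN body regions (69.8%) and above 1 in 6 (11.3%), where the shares over all were 44.0% and 32.4%. The body median was below 0 in 18 of 20 SCAN genes with a body region, where 48.1% of all 10592 such genes were below 0. Over genes the SCAN median was -0.75 (-1.10 to -0.49), and it differed from the median of the genes outside both families by -0.87 (-1.23 to -0.61).

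In the BTB family the bodies were split as those of genes in general were. Of 78 body regions 39 were called in H3.1/H3.2 alone (50%), 25 in H3.3 alone (32.1%) and 14 in both (17.9%), where the shares over all for H3.3 alone and both were 34.0% and 15.4%. H3.1/H3.2 was the higher by 2-fold or more in 21 (26.9%) and H3.3 in 20 (25.6%), and the body median was below 0 in 12 of 23 genes (52.2%). The median over genes, -0.24 (-0.69 to 0.78), included 0 and rose to 0.12 with peak in place of mean heights. BTB minus SCAN was 0.50 over genes (-0.01 to 1.59), which included 0, and 0.62 over regions (0.20 to 1.28), which did not. Regions of 1 gene are neighbours, and are not independent measurements.

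**Figure D2:**
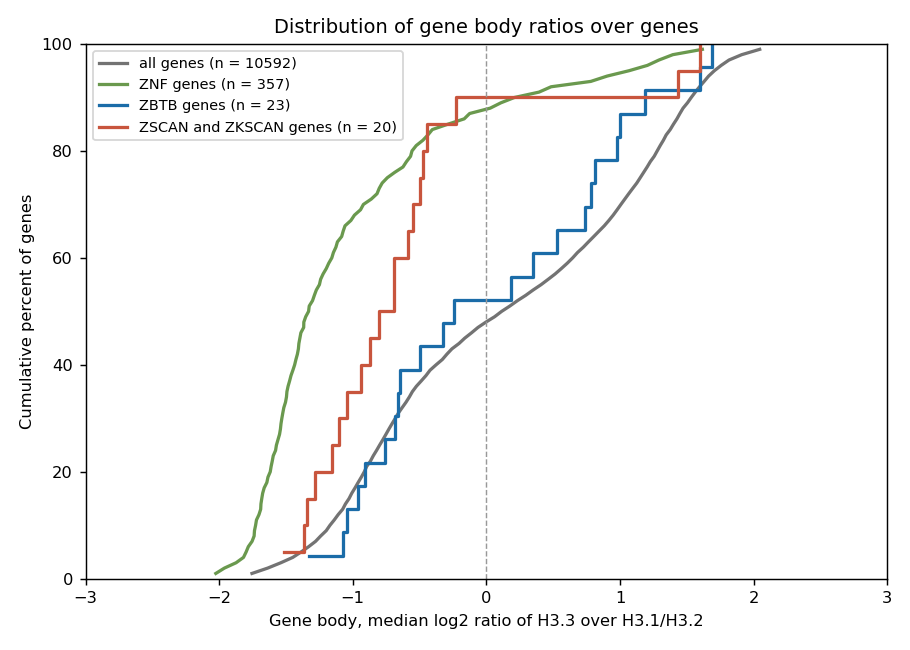
Cumulative percent of genes (vertical axis) against the log2 ratio of H3.3 to H3.1/H3.2, as the gene body median (horizontal axis) for ZBTB genes, ZSCAN and ZKSCAN genes, ZNF genes and all genes, the last 2 drawn from their 1st to 99th percentile. At the height of 50% the curves cross from left to right as ZNF, SCAN, ZBTB and all genes, with medians of -0.24, 0.11, -0.75 and -1.33 for ZBTB, all, SCAN and ZNF genes in that order.

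The ZNF genes, many of which encode KRAB zinc finger proteins, served as the nearest comparison. They were taken by symbol, so they include the BTB gene ZNF131 and SCAN genes such as ZNF174 and ZNF394. The promoter regions of ZNF174 and ZNF394 are also those of ZSCAN32 and ZKSCAN5. The body median of the ZNF genes was -1.33 over 357 genes, and 86.2% of their body regions were called in H3.1/H3.2 alone. SCAN bodies lay above them by 0.58 (0.22 to 0.85) and BTB bodies by 1.09 (0.64 to 2.12). At promoters the ZNF median was 0.23 over 371 genes. The BTB median exceeded it by 0.76 (0.18 to 1.05), whereas for SCAN the difference of 0.34 (-0.25 to 1.44) included 0.

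In the 4 lowest SCAN bodies every region had a call in the H3.1/H3.2 library alone. In ZSCAN32 all 5 body regions were called in H3.1/H3.2 alone, with folds from 0.223 to 0.473 and median heights of 7.17 and 1.74. ZSCAN18 on chromosome 19 had 4 such regions, the largest over 4399 bases with heights of 12.7 and 3.26 (0.257-fold, 0.193 to 0.341). ZSCAN30 had 3, from 0.176-fold to 0.625-fold, and the single region of ZSCAN20 had heights of 8.21 and 2.22 (0.271-fold, 0.140 to 0.504). The body medians of these 4 genes ran from -1.51 to -1.28 on the log2 scale.

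ZKSCAN5 had the most body regions of the SCAN genes. Its 10 body regions ran from 0.165-fold to 0.681-fold, 9 of them called in H3.1/H3.2 alone and 1 in both. The longest spanned 5599 bases with heights of 9.10 and 3.04 (0.333-fold, 0.254 to 0.434). All 6 ZKSCAN genes with a body region had a median below 0, among them ZKSCAN3, a repressor of autophagy genes. Its 2 body regions lay on both sides of 1, at 0.281-fold and 1.30-fold.

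All 5 SCAN body regions called in H3.3 alone lay on chromosome 6. They made up 33.3% of the 15 SCAN body regions there, close to the 34.0% over all body regions, and 0 of the 38 on other chromosomes (exact interval up to 9.25%). Those 38 regions came from 12 genes, and the interval treats them as independent. Off chromosome 6, a region of ZKSCAN1 called in both libraries had an interval above 1 (1.40-fold, 1.07 to 1.86). In ZSCAN31 the body region had heights of 3.74 and 13.3 (3.56-fold, 2.50 to 5.21). ZSCAN12 had 3.84 and 12.1 (3.15-fold, 2.07 to 4.85), ZSCAN9 3.47 and 10.4 (2.99-fold, 2.02 to 4.56), and ZKSCAN8 5.57 and 13.6 (2.45-fold, 1.57 to 3.86). The fifth, in ZKSCAN3, is the same region as the promoter region of ZSCAN31. A CpG island lay in 3 of the 5, at ZSCAN9, ZSCAN12 and ZKSCAN8. Farther along ZSCAN9 and ZKSCAN8 the balance turned, to 0.291-fold (0.197 to 0.412) and 0.275-fold (0.194 to 0.384) in their last body regions.

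**Figure D3:**
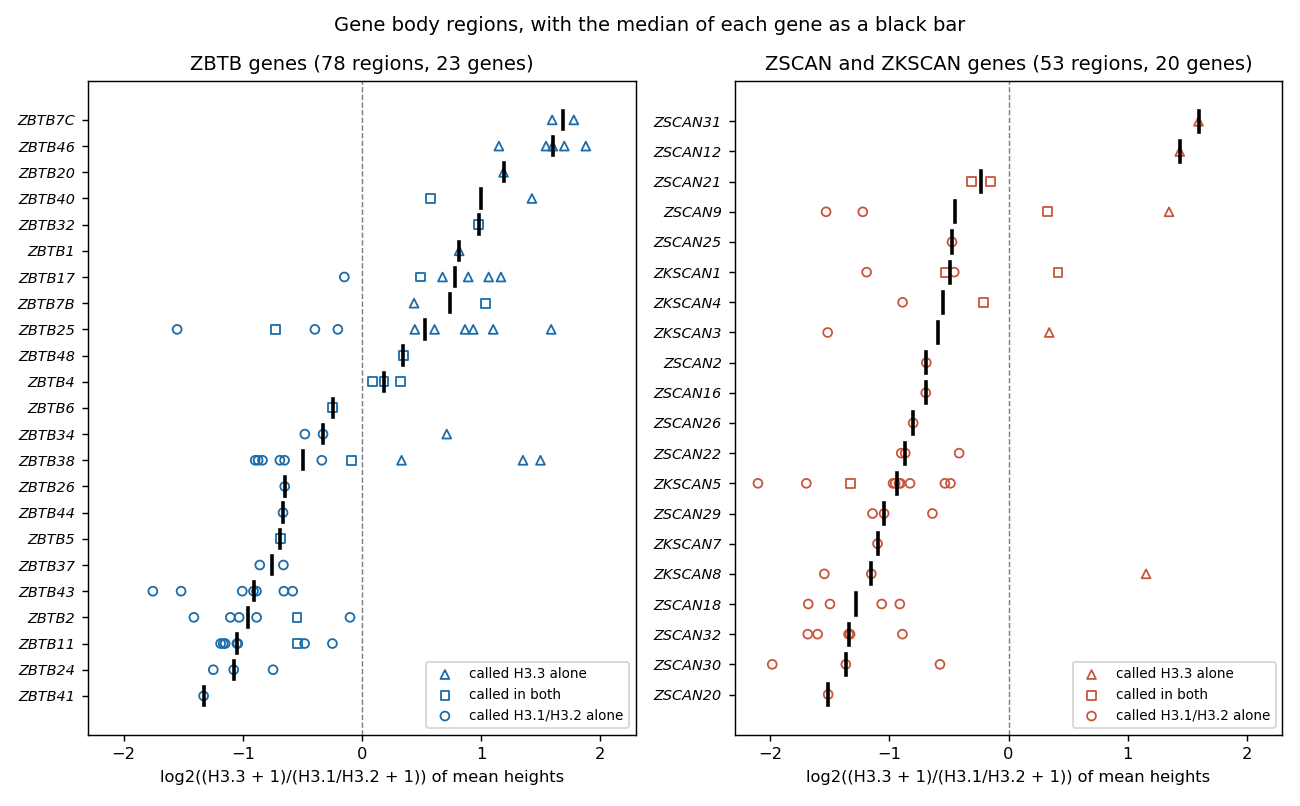
Log2 ratio of H3.3 to H3.1/H3.2 (horizontal axis, pseudocount 1) in each body region of the ZBTB genes (left) and the ZSCAN and ZKSCAN genes (right), 1 row per gene ordered by its median (black bar), with triangles, squares and circles for regions called in H3.3 alone, both and H3.1/H3.2 alone. In the SCAN panel 18 of 20 medians lie left of 0, and in the ZBTB panel 12 of 23 do.

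BTB gene bodies spread to both sides of balance. At the H3.3 end, all 5 body regions of ZBTB46 were called in H3.3 alone, from 2.54-fold to 4.43-fold, with median heights of 3.67 and 12.6. Both body regions of ZBTB7C were too, at 4.52-fold (1.63 to 14.9) and 5.05-fold (2.37 to 12.7), from 5 and 8 tags of H3.1/H3.2. The single body region of ZBTB20, a repressor in liver and a factor of hippocampal development, had heights of 1.95 and 5.72 (2.94-fold, 1.16 to 8). ZBTB40 had 2 body regions, at 3.39-fold and 1.57-fold.

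At the opposite end of the BTB family, the body region of ZBTB41 had heights of 5.70 and 1.67 (0.292-fold). The 3 regions of ZBTB24 ran from 0.347-fold to 0.537-fold, and the 8 of ZBTB11 from 0.364-fold to 0.821-fold. ZBTB2 had 6, from 0.289-fold to 0.926-fold. ZBTB43 had 7 body regions, all called in H3.1/H3.2 alone, from 0.203-fold to 0.623-fold. In these 5 genes no body region was called in H3.3 alone.

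Other BTB bodies held both kinds of region. ZBTB25 had 10 body regions, 6 called in H3.3 alone, 3 in H3.1/H3.2 alone and 1 in both, and several of them are also assigned to neighbouring genes. ZBTB38, the methyl-CpG reader without a promoter region, had 3 called in H3.3 alone, up to 3.44-fold, and 6 called in H3.1/H3.2 alone, down to 0.467-fold. ZBTB17, which encodes the MYC partner MIZ1, had 6 body regions, of which 4 were called in H3.3 alone. The single body region of ZBTB32, a lymphocyte repressor, had 7.34 and 15.5 (2.11-fold). In ZBTB4 all 3 were called in both libraries, from 1.07-fold to 1.28-fold.

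Body regions with a CpG island had a higher median ratio than those without in each family. In the BTB family the median log2 ratio was 0.78 (0.18 to 1.59) over 12 body regions with an island (15.4%, where 9.75% of all body regions had one) and -0.51 (-0.69 to -0.15) over the 66 without. In the SCAN family it was 0.06 (-1.98 to 1.44) over the 8 with an island and -0.91 (-1.15 to -0.80) over the 45 without. The interval of the 8 included 0 and the whole interval of the 45, and 5 of the 8 lay on chromosome 6. Over all genes the medians were 0.80 and -0.51, so the SCAN bodies without an island stood below those of genes in general, and the BTB bodies did not. By distance into the gene the SCAN medians were -0.80 up to 10000 bases from the start, -0.91 from there to 20000 bases and -1.19 (-1.68 to -0.91) beyond, with overlapping intervals. In that order these bins held regions of 12, 16 and 4 genes, so they compare partly different genes.

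Within single genes the promoter mostly stood above the body. The promoter log2 ratio exceeded the body median in 13 of 16 BTB genes (81.2%) and 9 of 11 SCAN genes (81.8%), where 71.2% of all genes with both did so. The median difference was 0.95 (0.08 to 2.45) in the BTB family and 0.66 (-0.22 to 2.38), which included 0, in the SCAN family. With regions of at least 1000 bases this turned round, with 0.44 (-0.32 to 1.92) for BTB and 0.90 (0.31 to 2.38) for SCAN genes, so no contrast between the families is drawn from it. A promoter above 0 over a body below 0 was found in 8 BTB and 7 SCAN genes, 55.6% of the 27, where the share over all genes was 34.3%. The largest drop was in ZBTB2, from 2.11 at the promoter region to -0.96 in the body. ZBTB11 fell from 1.40 to -1.05, ZSCAN26 from 1.65 to -0.80 and ZSCAN9 from 1.93 to -0.45. The reverse order was seen in ZBTB48, with -0.49 at the promoter and 0.35 in the body, and in ZBTB7B, ZBTB7C, ZSCAN12 and ZSCAN31. Of these ZBTB48 alone had its promoter below 0 and its body above 0, a pattern found in 5.77% of all genes. Both lay below 0 in ZBTB24, at -0.99 and -1.08, and in ZKSCAN5 and ZSCAN22, where 19.2% of all genes had that pattern, and both lay above 0 in 6 BTB and 2 SCAN genes, where 40.7% did.

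**Figure D4:**
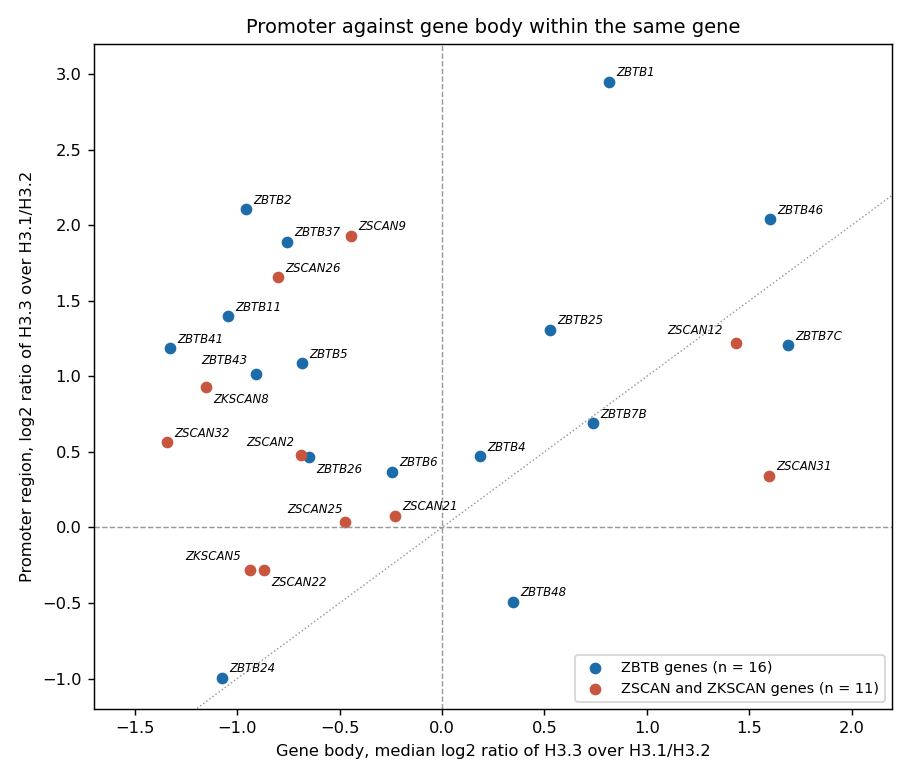
Log2 ratio of H3.3 to H3.1/H3.2 at the promoter region (vertical axis) against the median of the gene body (horizontal axis) for 16 ZBTB genes and 11 ZSCAN and ZKSCAN genes, 1 point per gene, with a dotted line where both are equal. The upper left quadrant, with the promoter above 0 and the body below 0, holds 15 of the 27 genes, and 22 lie above the dotted line.

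Some members share regions, and a shared region is 1 measurement wherever it is used. No region gave the promoter value, or entered the body value, of more than 1 member of a family. ZBTB1 and ZBTB25 share 7 regions, and ZBTB6 and ZBTB26 share 4. The pairs on chromosome 6 include ZKSCAN8 with ZSCAN16, ZKSCAN4 with ZSCAN26 and ZKSCAN3 with ZSCAN31. Of the pairs named here, only ZKSCAN3 and ZSCAN31 draw on the same region, for the body value of ZKSCAN3 and the promoter value of ZSCAN31. Of the 44 promoter regions, 6 were assigned to a single gene (13.6%, 5.17 to 27.4), 5 of them BTB and 1 SCAN. Over all genes 20.4% of promoter regions were. Of the 131 body regions 68 were (51.9%), where 64.8% of all body regions were.

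Relatives with other names and partners were looked up for comparison. Of 8 BTB zinc finger genes under other names, 7 had a promoter region, and 6 of the 7 (85.7%) reached 2-fold toward H3.3, where 50.5% of all genes did. MYNN was the highest (3.08 and 11.9, 3.87-fold, 1.98 to 8.41), and BCL6, the repressor of germinal centre B cells, had 5.50 and 11.7 (2.13-fold, 1.51 to 3.07). SCAN genes under other names lay on both sides. Of the 23 listed, 20 had a promoter region. Among these 20, 6 (30%) reached 2-fold toward H3.3 and 7 (35%) toward H3.1/H3.2, where the shares over all genes were 50.5% and 6.25%. ZNF449 and ZNF75D among the 6 are 1 shared region. The ends were ZNF397 (5.92-fold, 2.76 to 13.1) and PEG3 (0.324-fold, 0.196 to 0.533), an imprinted gene. None of the 7 regions toward H3.1/H3.2 covered the start of its gene. They lay from 84.5 bases (ZNF202) to 1727.5 bases (PEG3) away from it. Toward H3.3, the regions of ZNF215, ZNF263, ZNF397 and ZNF75A covered the start, and those of ZNF449 and ZNF75D did not. Of the listed SCAN genes under other names, 12 of 14 with a body region had a body median below 0 (85.7%). The shares were 48.1% over all genes and 87.7% over ZNF genes. Among genes for BTB partners, the corepressor genes BCOR (3.84-fold, 2.33 to 6.49), NCOR1, SIN3A and HDAC3 had an interval above 1. Over all genes 67.5% of promoters had one. CUL3, the cullin gene, was at 0.146-fold (0.0251 to 0.432), from 23 and 3 tags in a region 1998.5 bases from the start.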

How the data were processed

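Per the labels' protocols, each pull-down took 30 µg of LM2 chromatin and used 4 µg of antibody for H3.1/H3.2 and 6 µg for H3.3, and libraries were sequenced from a single end with 75 nt reads. BWA, SICER and hg38 are named per the submitters' processing notes, without versions or settings. The authors deposited 1 table of merged regions with a pileup signal per ChIP library (mean and highest height), the kind of call, and counts of CpG islands, promoters and genes. The deposited log2 ratio was not used; a log2((H3.3 + 1)/(H3.1/H3.2 + 1)) was computed from mean heights over chromosomes 1 to 22 and X. The deposited tag score of each region equals the higher mean height times length over 224 to within 4.55e-13, and tags of both libraries were computed by that relation. If heights had been scaled, tags and intervals would be off by that factor, and the labels name no molecular identifiers, so intervals cover counting error only.

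Applied to the 36810 regions assigned to 1 gene, the promoter window recovered the deposited promoter mark in 100%. A promoter value is that of the region whose edge is nearest the start, and a body value is the median over body regions. Fold intervals are exact conditional, shares exact Clopper-Pearson and medians exact order-statistic intervals, all 95%, and a difference of medians joins both widths in quadrature. Named genes were the 8 highest and lowest promoters and 4 highest and lowest bodies of each family with at least 20 tags, promoters called in H3.1/H3.2 alone, and listed subgroups. ZBTB5, ZBTB18, ZBTB22, ZBTB26, ZBTB39, ZBTB41 and ZBTB47 have values within the ranges and counts. Neighbouring genes given beside a region were named after its values were seen. The members and lists were chosen with earlier results of these data known. All 62 symbols matched the RefSeq gene table (GRCh38.p14), and 7 further RefSeq symbols of this form are not analysed here. 1 listed partner gene is not reported here. Calculations used Python 3.11.15, pandas 2.3.3, numpy 2.4.6 and scipy 1.17.1, and were tested on simulated data.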

Additional observations from a re-analysis of the deposited data

How the results depend on the processing

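There were 11 results and 13 alternatives, 3 of them added after the data were seen (equal tags, regions without a CpG island, nearest centre). Of 117 values, 107 stayed within the interval of the reported median or within 1.5 times the reported count. Counting each region once per family, or keeping regions with a summed mean height of at least 5, changed no value. Those unchanged values are among the 107. With a pseudocount of 10, which shrinks every ratio, the BTB promoter median was 0.44 and the SCAN body median -0.32. Among regions assigned to 1 gene, 5 BTB and 1 SCAN promoters reached 2-fold toward H3.3, since only 6 and 1 genes were left. Without CpG island regions these counts were 6 of 16 and 3 of 11, and 2 BTB and 3 SCAN promoters reached 2-fold toward H3.1/H3.2. With peak heights, or regions of at least 1000 bases, 0 BTB promoters did so, and ZBTB24, whose region has 999 bases, is left out of the latter. The BTB body median turned to 0.12 with peak heights, and BTB minus SCAN at promoters to -0.01 in 1-gene regions. Scaling H3.3 so that both libraries held equal tags moved the promoter and body medians of all genes by -0.28 each. Then 11 BTB and 5 SCAN promoters reached 2-fold toward H3.3, where 37.9% of all genes did, and 67.9% of SCAN body regions reached it toward H3.1/H3.2, where 42.5% of all did. The SCAN body median stayed below 0 in all alternatives, but in 1-gene regions its interval included 0 (-0.92, -1.15 to 0.06, 12 genes). The interval of the SCAN promoter median also included 0 with regions of at least 1000 bases (-0.28 to 1.93) and without CpG islands (-1.30 to 1.93). So did that of the BTB promoter median without CpG islands (-0.49 to 1.30) and in 1-gene regions (-1.06 to 2.17). The BTB promoter minus body difference was 0.46 (-0.51 to 1.99) without CpG islands. A promoter minus body difference of SCAN genes in 1-gene regions could not be had. No paired analysis was possible because each antibody has 1 library and the labels give no replicate numbers. Single folds are limited by tags, with H3.1/H3.2 counts of 12 or fewer at ZBTB1, ZBTB2, ZBTB7A, ZBTB14, ZSCAN10 and ZSCAN12.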

Other observations

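At several members the balance changed from 1 region to the next within a few kilobases. Around ZBTB26 the region covering the start had an H3.1/H3.2 height of 7.23 and an H3.3 height of 10.4 (1.43-fold), and the other 5 regions in its promoter window, on both sides of it, ran from 0.391-fold to 0.625-fold and were called in H3.1/H3.2 alone. ZSCAN32 had the same order, with 1.57-fold at the start and 0.351-fold and 0.401-fold in the regions upstream. At ZBTB2 the region inside the gene had 5.42-fold. The regions upstream had 0.267-fold (0.0489 to 1.03, from 11 and 3 tags) and 0.532-fold (0.246 to 1.15). Both of those intervals included 1, so these regions could not be told from balance. Among members with several regions in the promoter window, those regions lay on both sides of 1 in 9 of 21 BTB genes and 3 of 8 SCAN genes. These counts use the folds whatever their intervals. The share over all genes was not computed, so it is not known if such turns are usual. ZBTB7A, with 6 regions from 1.87-fold to 6.08-fold, and ZBTB49, with 4 from 0.436-fold to 0.720-fold, kept to 1 side. Whether these turns rest on where regions were cut and merged was not tested.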
